A study of Mus musculus with 2 samples.

Results

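The genes described here are 52 cell cycle genes, 23 of DNA synthesis (S phase) and 29 of the G2 phase and mitosis (G2/M), taken from a named list and all found among the 17232 genes of the deposited table. They were measured by scRNAseq in tumor-infiltrating immune cells (TIIs) from mice bearing B16-OVA tumors, a B16 melanoma line that carries ovalbumin as a model antigen. One group was *Maoa* wild type (WT) and the other, denoted *Maoa* KO, carried a hypomorphic mutation of *Maoa*, the gene of monoamine oxidase A, in every cell and not in immune cells alone. Both groups were adult female mice on the C57BL/6J background, and no treatment is given for either. For each genotype 10 tumors were combined, live CD45.2+ DAPI- leukocytes were sorted, and 10000 cells were loaded on the Chromium 3′ V2 platform, so that there was 1 library per genotype and the mice within it cannot be told apart. No difference between the libraries has a test. All intervals below are 95% intervals of counting error, and they do not cover variation between mice.

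A dividing cell makes S phase transcripts first, for the helicases, nucleotides and histones that copying the genome needs, and then transcripts for the cyclins, kinases and spindle parts that separate the copies. Most of these transcripts fall away when the cell returns to rest, so their joint level follows how many cells of a population are cycling and how far each has gone. In tumors, activated T cells and some tissue macrophages divide locally, whereas monocytes and plasmacytoid dendritic cells (pDCs) arrive as cells that have largely stopped dividing.

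The regulatory DNA of these genes is shown because S and G2/M transcripts are read from promoters that carry different short elements. The windows printed here cover the 120 bases before the annotated start in RefSeq sequence of build GRCm38.p6, written 5′ to 3′ in the direction of the gene. Capitals mark the CCAAT box (CCAAT or its reverse complement ATTGG), the cell cycle homology region (CHR, TTTGAA or TTCGAA or their reverse complements TTCAAA and TTCGAA) and the E2F element (TTTCCCGC, TTTCGCGC, TTTGCCGC or TTTGGCGC, or their reverse complements). The G2/M examples lie at chr11:99024190-99024309 on the minus strand for *Top2a* (topoisomerase II alpha, which untangles sister chromosomes), chr10:69352913-69353032 on the minus strand for *Cdk1* (the mitotic cyclin-dependent kinase), chr4:118437344-118437463 on the minus strand for *Cdc20* (activator of the anaphase-promoting complex), chr2:164769809-164769928 on the plus strand for *Ube2c* (the ubiquitin-conjugating enzyme of that complex) and chr3:89418292-89418411 on the minus strand for *Cks1b* (a Cdk-binding subunit). The S examples lie at chr1:128359706-128359825 on the minus strand for *Mcm6* (part of the replicative helicase) and chr19:38930870-38930989 on the plus strand for *Hells* (a chromatin remodeler).
Top2a: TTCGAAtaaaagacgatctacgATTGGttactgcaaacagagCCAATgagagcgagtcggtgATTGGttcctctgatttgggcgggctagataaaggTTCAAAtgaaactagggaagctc
Cdk1: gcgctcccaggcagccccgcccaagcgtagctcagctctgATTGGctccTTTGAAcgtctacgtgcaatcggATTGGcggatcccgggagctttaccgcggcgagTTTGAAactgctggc
Cdc20: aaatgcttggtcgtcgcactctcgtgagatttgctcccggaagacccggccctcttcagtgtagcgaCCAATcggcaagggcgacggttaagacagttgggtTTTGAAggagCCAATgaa
Ube2c: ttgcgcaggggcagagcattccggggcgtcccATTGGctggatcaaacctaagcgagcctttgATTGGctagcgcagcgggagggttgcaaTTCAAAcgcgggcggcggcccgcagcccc
Cks1b: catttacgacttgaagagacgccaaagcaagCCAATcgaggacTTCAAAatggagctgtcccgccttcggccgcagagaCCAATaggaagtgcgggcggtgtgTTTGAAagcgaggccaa
Mcm6: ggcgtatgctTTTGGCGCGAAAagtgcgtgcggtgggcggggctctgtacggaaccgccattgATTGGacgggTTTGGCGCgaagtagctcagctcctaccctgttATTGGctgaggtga
Hells: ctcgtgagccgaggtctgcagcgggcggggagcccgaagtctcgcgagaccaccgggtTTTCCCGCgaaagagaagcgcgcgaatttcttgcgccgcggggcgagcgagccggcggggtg

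*Top2a* carried 3 CCAAT boxes and 2 CHR elements in these letters, *Cdk1* 2 and 2, and *Cdc20* and *Ube2c* 2 and 1 each, whereas *Mcm6* carried 2 CCAAT boxes, no CHR and 3 E2F matches, of which the adjacent pair overlap. The examples printed all carry a CHR (G2/M) or an E2F element (S), and they do not stand for every gene. In the same 120 bases *Birc5*, *Nusap1* and *Ccnb1* carried no CHR, and *Pcna* and *Tyms* carried no E2F element. In the full RefSeq windows, from 250 bases before to 50 bases after the start, a CHR was found in 70.8% of the 24 windows of the G2/M genes and in 19.0% of the 21 windows of the S genes. It was found in 14.7% of the 16074 windows of all genes of the table. A CHR together with a CCAAT box was found in 70.8% of the G2/M windows against 6.05% of all windows. The E2F element showed the other pattern, with 38.1% of S windows, 4.17% of G2/M windows and 3.59% of all windows. Windows were matched for 18 of the 23 S genes and 24 of the 29 G2/M genes. A match is a description of these letters and not a measured binding site. In the GENCODE annotation of GRCm38 all 52 genes were protein coding, and they lay on 18 chromosomes.

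*Maoa* itself, which lies on chromosome X from 16619698 to 16687818, gave few UMIs in either library. The library labelled WT held 7 UMIs of it in 6 cells (0.243 CPM, that is, UMIs scaled to a total of 1000000 in the cells counted) and the library labelled KO held 15 UMIs in 14 cells (0.633 CPM), a log2 ratio of 1.33 with an interval of 0.00 to 2.92. On these few UMIs the targeted gene ran against the labels. Every direction below rests on the labels, and a library is called by its label and not by a genotype. The library labelled WT had 2392 cells and 28801253 UMIs (median 9888 per cell), and the library labelled KO had 2630 cells and 23702018 UMIs (median 6946 per cell). T cells differed most in depth, with a median of 9739 UMIs per cell among those labelled WT and 4791 among those labelled KO. Summed neutrophil markers were at 138 CPM in T cells of the library labelled WT and 17.9 CPM in those of the library labelled KO. At least 3 *Cd3* UMIs together with at least 5 myeloid UMIs were found in 53.3% and 33.6% of T cells. The myeloid list was *Lyz2*, *C1qa*, *C1qb*, *C1qc*, *Cd68*, *Csf1r*, *Fcer1g* and *Tyrobp*. *Fcer1g* and *Tyrobp* are also markers of NK cells, and *Fcer1g* of Ly49 CD8 T cells. With the narrower list of *C1qa*, *C1qb*, *C1qc*, *Csf1r* and *Cd68* the shares were 5.71% and 1.09%. The parts of depth, free RNA and joined cells in the results were not tested, and values without the cells concerned are given where they matter.

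Cell states were rebuilt by clustering with cell cycle genes left out of the variable genes, and the names rest on marker lists. Checkpoint-high CD8 T cell-like cells (546 labelled WT and 303 labelled KO) made *Cd8a* at 740 and 718 CPM and *Pdcd1*, the PD-1 receptor gene, at 462 and 401 CPM. Regulatory T cell-like cells (100 and 100) made *Foxp3* at 263 and 257 CPM. C1q macrophage-like cells (70 and 92) made *C1qa* at 4401 and 4547 CPM. A T cell cluster led by the Ly49 receptor genes *Klra6* and *Klra7* (74 and 252 cells), a T cell cluster led by the interferon-response genes *Ifit3* and *Ifit1* (71 and 54) and a macrophage cluster led by *Hspa1a* and *Mmp12* (156 and 130) stayed unnamed.

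The 52 genes took 0.568% of all UMIs in the library labelled WT (163694 UMIs) and 0.415% in the library labelled KO (98279 UMIs). Among S genes the most UMIs were from *Hist1h2ap*, a histone H2A gene, at 280 CPM over all cells labelled WT and 158 CPM over all cells labelled KO. *Dut* (dUTPase, which keeps uracil out of DNA) stood at 209 and 120 CPM and *2810417H13Rik* (*Pclaf*, a binding partner of the sliding clamp) at 187 and 122 CPM, so that their order differed between the libraries. Among G2/M genes *Tuba1b* (857 and 711 CPM), *Tubb5* (786 and 675 CPM) and *Hmgb2* (746 and 514 CPM) came first. These are tubulin genes and a chromatin protein gene that resting cells also use, and with *Stmn1*, a microtubule regulator, they are treated apart below as the 4 broad genes. Without them, *Cenpa*, the centromeric histone, led in both libraries at 172 and 125 CPM. *Ube2c* (146 and 90.9 CPM) and *Birc5*, the survivin subunit of the Aurora B complex (139 and 96.9 CPM), came next in the library labelled WT, and *Cks2* (133 and 102 CPM) and *Cks1b* (127 and 98.0 CPM) in the library labelled KO. The UMIs mark 3′ ends, which were not scaled by gene length, and those of *Hist1h2ap*, *Hist1h2ae* and the tubulin genes are uncertain because near-identical copies can share reads and most histone transcripts lack a poly(A) tail.

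Checkpoint-high CD8 T cell-like cells stood at the top of the G2/M order in both libraries and pDC-like cells at the bottom. The summed G2/M level was 7331 CPM (7275 to 7387) in checkpoint-high cells of the library labelled WT and 6236 CPM (6154 to 6319) in those of the library labelled KO. Regulatory T cell-like cells were at 5711 and 6228 CPM, and in the library labelled KO the interval of the latter, 6073 to 6386, overlapped that of checkpoint-high cells. Among myeloid cells, C1q macrophage-like cells were highest in both libraries, at 4357 and 4864 CPM. pDC-like cells (827 and 871 CPM), classical monocyte-like cells (874 and 998 CPM) and nonclassical monocyte-like cells (919 and 988 CPM) formed the low end, with overlapping intervals in each library.

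Between these ends the libraries ordered the states differently. In the library labelled WT, conventional CD4 T cell-like cells (5936 CPM), the *Klra6*/*Klra7* cluster (5334 CPM) and the *Ifit3*/*Ifit1* cluster (3863 CPM) came before or next to C1q macrophage-like cells. In the library labelled KO the same 3 were at 2735, 1612 and 1835 CPM, below both cDC1-like cells (3494 CPM) and Cd209a DC-like cells (2898 CPM). By gene, 33 of the 52 were highest in checkpoint-high cells of the library labelled WT. Of the 52 in the library labelled KO, 25 were highest in regulatory T cell-like cells, 20 in checkpoint-high cells and 6 in C1q macrophage-like cells. The other gene was *Ung*, the uracil-DNA glycosylase that removes uracil from DNA, with 25.5 CPM in pDC-like cells labelled WT and its highest level of all in those labelled KO.

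**Figure D1:**
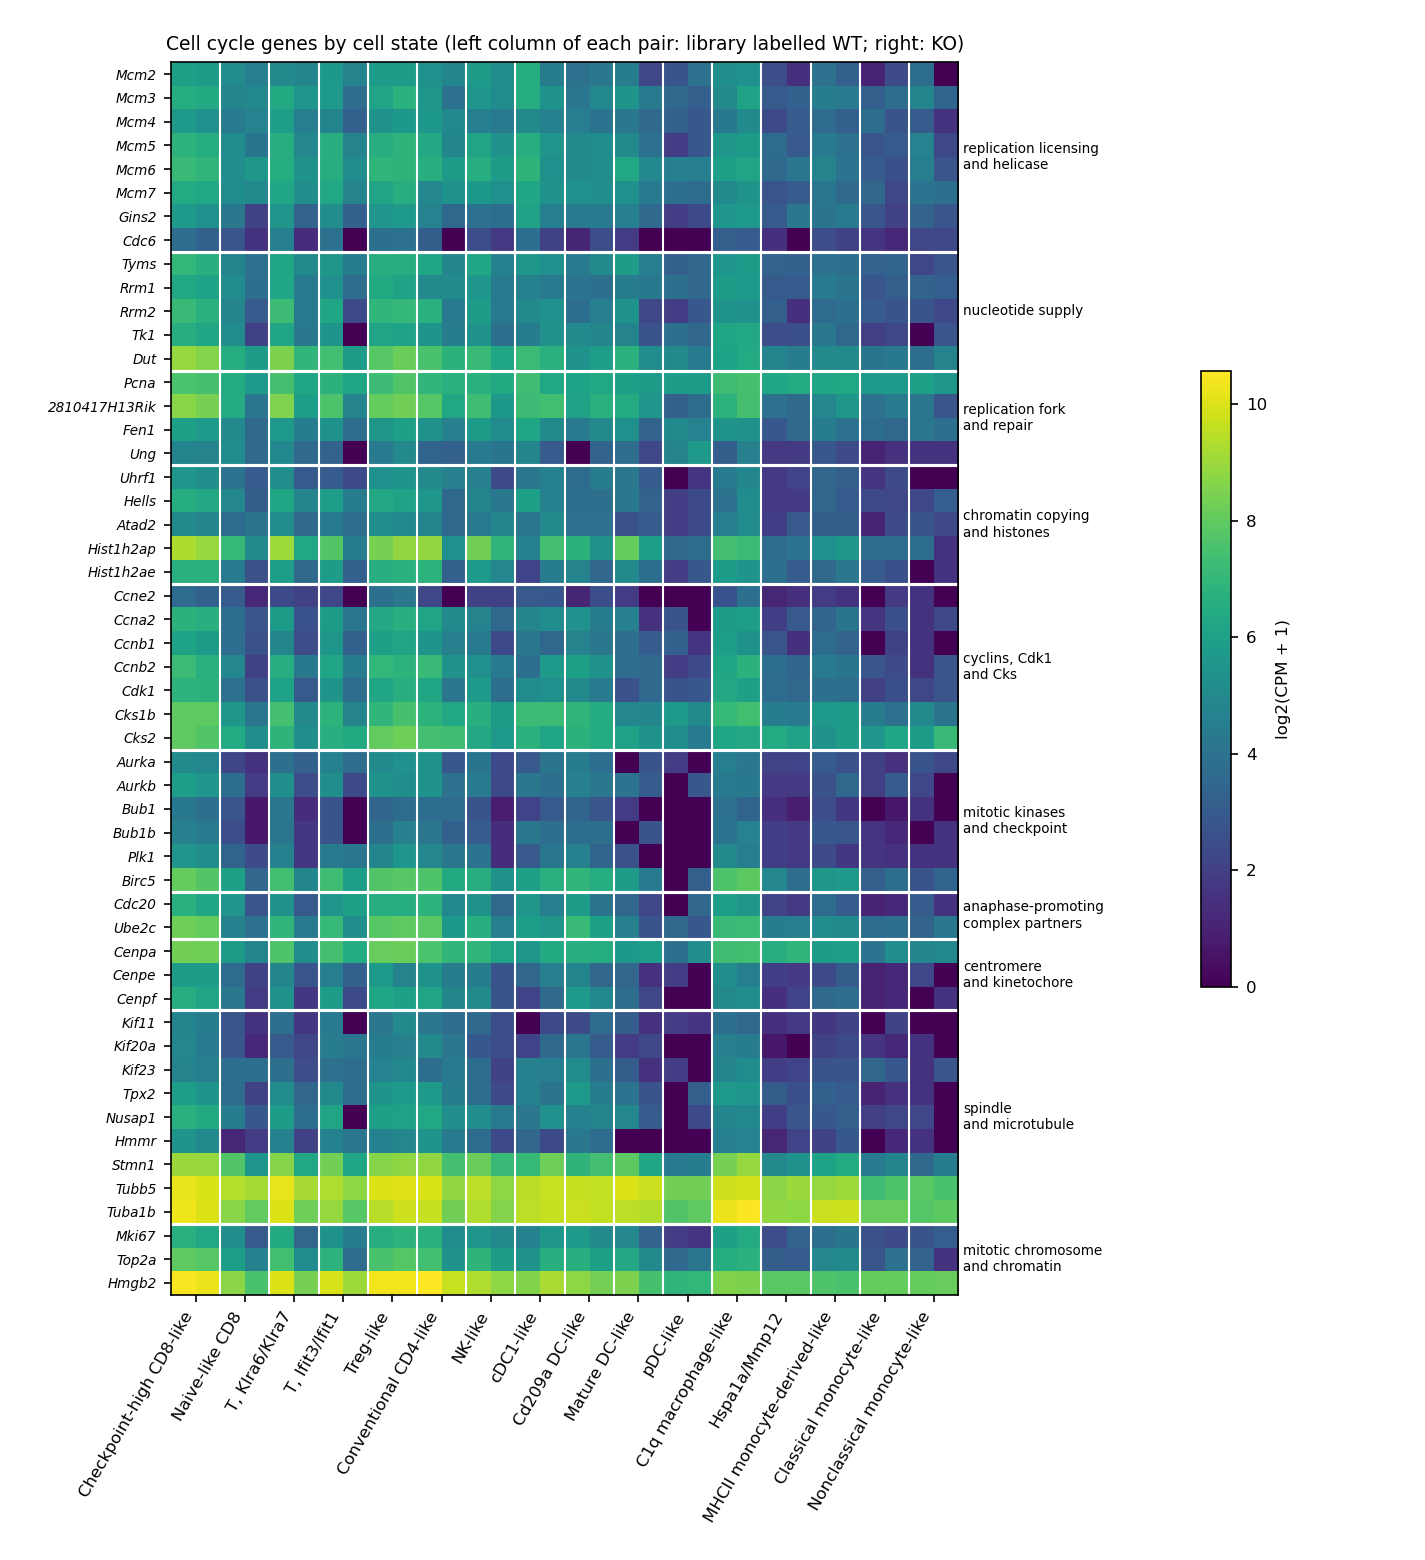
Level of each of the 52 genes (rows, grouped by role) in the cell states shown, by library (columns), as log2(CPM + 1) on the color scale. The columns of checkpoint-high CD8, regulatory T and C1q macrophage-like cells are the most filled, and the columns of monocytes and pDC-like cells are brightest in the rows of *Tuba1b*, *Tubb5* and *Hmgb2*.

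Within CD8 T cells the cycle genes separated the states widely. Checkpoint-high cells were compared with naive-like CD8 T cell-like cells (147 and 294 cells) within each library. All 52 genes labelled WT and 46 labelled KO reached the minimum of 100 UMIs over both states. Some reached it through checkpoint-high cells alone, so no count is drawn from those past a log2 ratio of 1, where 27.8% and 24.5% of all genes were. *Ccnb2*, cyclin B2, stood at 28.6 CPM in naive-like and 146 CPM in checkpoint-high cells labelled WT, and at 3.25 and 103 CPM in those labelled KO. *Hmmr*, a spindle-associated protein gene, was seen as 1 UMI in naive-like cells and 388 UMIs in checkpoint-high cells labelled WT, a log2 ratio of 4.60 (2.69 to 10.5). At the other end, *Ung* stood at 34.5 and 26.0 CPM in the library labelled WT, the lowest ratio there (-0.43), and *Tubb5* at 672 and 1216 CPM.

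The checkpoint-high state joined 3 clusters. The cluster led by *2810417H13Rik* and *Ube2c* (233 and 167 cells) was led by cycle genes although these had been kept out of the clustering, so its level is a description of how it stands apart. It held 42.7% of checkpoint-high cells labelled WT and, of the cells labelled KO, 55.1%, with G2/M sums of 9821 and 7653 CPM. The cluster led by the chemokine genes *Ccl3* and *Ccl4* (267 and 128 cells) was at 4598 and 4347 CPM and made *Lag3*, a checkpoint receptor gene, at 583 and 743 CPM. The cluster led by the granzyme genes *Gzmd* and *Gzmf* (46 and 8 cells) was at 4411 and 4509 CPM. Both clusters not led by cycle genes were above naive-like cells, which stood at 2338 and 1272 CPM.

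Macrophages and monocytes showed the same kind of contrast. *Ccnb1*, cyclin B1, gave 100 UMIs in C1q macrophage-like cells and 0 in classical monocyte-like cells of the library labelled WT. *Cdc20* gave 99 UMIs against 1, a log2 ratio of 5.28 (3.35 to 11.2). In C1q macrophage-like cells of the library labelled KO *Mki67*, the proliferation marker Ki-67, was at 88.8 CPM against 4.39 CPM in classical monocyte-like cells. Only 22 of the 52 genes labelled WT and 26 labelled KO reached the minimum of 100 UMIs over both states. A gene could reach it through C1q macrophage-like cells alone, so no count is drawn from those past a log2 ratio of 1, where 13.2% and 16.0% of all genes were. Among the genes that reached it, *Hmgb2* (267 and 376 CPM labelled WT) and *Cks2* (46.8 and 74.5 CPM labelled WT) were under that ratio in both libraries.

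Between the libraries, T cells and NK cells stood lower for cycle genes in the library labelled KO, and TAM/Mono cells stood higher. DCs differed least in the summed CPM, though not in every setting. In T cells (1015 and 1103) the S sum was 2761 CPM labelled WT and 1721 CPM labelled KO, a log2 ratio of -0.68 (-0.71 to -0.65). The G2/M sum was 6553 and 4209 CPM, a log2 ratio of -0.64 (-0.66 to -0.62). NK cell-like cells (188 and 262) showed S sums of 1486 and 783 CPM (-0.92, -1.04 to -0.81) and G2/M sums of 3351 and 1869 CPM (-0.84, -0.92 to -0.77). DCs (112 and 260, without pDC-like cells) showed S sums of 877 and 735 CPM (-0.25, -0.35 to -0.16) and G2/M sums of 3199 and 2928 CPM (-0.13, -0.18 to -0.08). In TAM/Mono cells (912 and 810) the S sum was 429 and 574 CPM (0.42, 0.36 to 0.48) and the G2/M sum 1903 and 2363 CPM (0.31, 0.28 to 0.34). Fewer cycling cells and less RNA per cycling cell cannot be told apart in these sums. Counted as UMIs per cell, the ratio of every gene shifts with depth, by -0.77 in T cells, -0.47 in NK cells, -0.13 in DCs and -0.16 in TAM/Mono cells, and the signs of the 8 ratios were the same.

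In T cells, each of the 52 genes had a ratio below 0. The ratios ran from -1.04 to -0.33 with a median of -0.67, whereas the median of all 8357 genes tested was -0.08. The lowest was *Cdc6*, which loads the replicative helicase, at 12.9 CPM labelled WT and 6.23 CPM labelled KO, the only 1 past a log2 ratio of -1, where 1.64% of all genes were. *Ccnb2* (130 and 65.5 CPM, -0.99) and *Cenpf*, a kinetochore protein gene (83.0 and 41.7 CPM, -0.99), came next. The smallest differences were in *Kif23*, a kinesin of cell division (23.3 and 18.4 CPM, -0.33), *Ung* (24.9 and 19.6 CPM, -0.34) and *Pcna*, the sliding clamp of replication (172 and 135 CPM, -0.35). By role, the ratio was -0.80 for mitotic kinases and checkpoint genes (395 and 226 CPM), -0.78 for the partners of the anaphase-promoting complex (354 and 207 CPM) and -0.77 for chromatin copying and histones (779 and 458 CPM). Nucleotide supply followed at -0.76 (805 and 474 CPM), the kinetochore group at -0.66, cyclins with *Cdk1* and Cks at -0.65, and fork and repair genes at -0.62. The helicase group was nearest 0 at -0.52 (553 and 385 CPM).

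**Figure D2:**
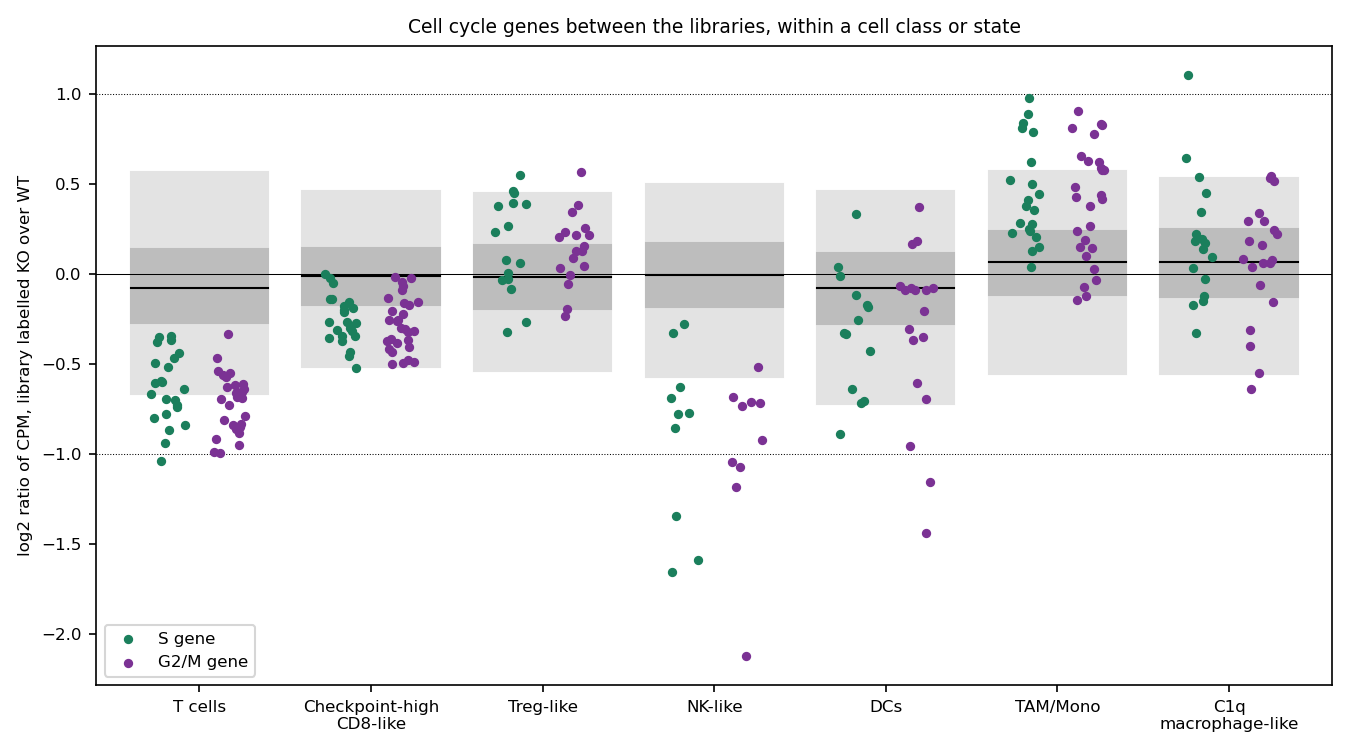
Log2 ratio of CPM, library labelled KO over library labelled WT, for each tested gene of the set (points) in T, NK, DC and TAM/Mono cells and in checkpoint-high CD8, regulatory T and C1q macrophage-like cells. The light and dark bands hold the middle 90% and 50% of all tested genes, and the black line is their median. The 52 points of T cells all lie between -1.04 and -0.33, and 44 of the 48 points of TAM/Mono cells lie above 0.

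The T cell difference was not the same in each state, and the size of each state's ratio depended on the setting. Regulatory T cell-like cells stood slightly higher in the library labelled KO, with S sums of 2217 and 2609 CPM (0.23, 0.15 to 0.32) and G2/M sums of 5711 and 6228 CPM (0.12, 0.07 to 0.18). Over the alternatives these ratios ran from 0.043 with cycle genes kept in the clustering (G2/M) to 1.21 without cells of both T cell and myeloid RNA (S). Of 34 genes tested there 25 had ratios above 0, the median was 0.14 against -0.02 for all genes, and 0 passed a log2 ratio of 1 in either direction, where 0.281% and 1.25% of all genes did. Checkpoint-high cells had G2/M sums of 7331 and 6236 CPM (-0.23, -0.26 to -0.21), and 51 of 52 genes had ratios below 0 with a median of -0.27 against -0.01. None of them passed a log2 ratio of 1 in either direction, where 0.328% of all genes were past it upward and 1.25% downward. The checkpoint-high ratios of the S and G2/M sums ran from -0.76 as UMIs per cell to -0.089 with cycle genes kept in the clustering. *Cdc6* (-0.52), *Ccnb2* (-0.50) and *Kif20a*, a kinesin of cytokinesis (28.9 and 20.4 CPM, -0.49), were lowest. Larger differences were in the *Klra6*/*Klra7* cluster (G2/M 5334 and 1612 CPM, -1.73), conventional CD4 T cell-like cells (5936 and 2735 CPM, -1.12), the *Ifit3*/*Ifit1* cluster (3863 and 1835 CPM, -1.07) and naive-like cells (2338 and 1272 CPM, -0.88, and -1.57 to -0.35 for S and G2/M over the alternatives).

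In conventional CD4 T cell-like cells *Hist1h2ap* stood at 459 and 38.6 CPM, *Rrm2*, the small subunit of ribonucleotide reductase, at 103 and 19.3 CPM, and *Ube2c* at 234 and 49.3 CPM. In regulatory T cell-like cells the same genes were at 341 and 467 CPM, 125 and 132 CPM, and 225 and 250 CPM. Weighting each T cell state by its mix over both libraries gave ratios of -0.54 for the S sum and -0.48 for the G2/M sum, against -0.68 and -0.64 unweighted. Without cells that held both T cell and myeloid RNA the T cell ratios were -0.83 and -0.82, and 20 of 44 tested genes were then past -1, as were 2.22% of all genes. In the *Klra6*/*Klra7* cluster 68.9% and 44.4% of cells held both kinds of RNA, by the myeloid list that includes *Fcer1g*, also a marker of Ly49 CD8 T cells.

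In NK cell-like cells, which kill without prior antigen exposure, 20 genes had enough UMIs and all 20 had ratios below 0, with a median of -0.77 against -0.01 for all genes. Of these, 7 were past a log2 ratio of -1, as were 1.56% of all genes, and 0 were past 1, as were 0.408%. With a minimum of 20 UMIs, 45 of 46 genes had ratios below 0. *Ube2c* stood at 101 and 22.8 CPM (-2.12), *2810417H13Rik* at 155 and 48.9 CPM (-1.65) and *Tyms*, thymidylate synthase, at 74.4 and 24.4 CPM (-1.59). The highest ratios were in *Pcna* (105 and 86.3 CPM, -0.28), *Mcm7*, a helicase subunit (49.1 and 39.1 CPM, -0.32), and *Hmgb2* (636 and 446 CPM, -0.51). By role, the partners of the anaphase-promoting complex had 174 and 42 UMIs (-2.04, -2.58 to -1.56), and the helicase group 439 and 295 UMIs (-0.58, -0.80 to -0.36). Without cells of more than 20000 UMIs the NK ratios were -0.58 for S and -0.49 for G2/M.

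In DCs, 27 of 32 genes (41 of 50 with a minimum of 20 UMIs) had ratios below 0, with a median of -0.23 against -0.07 for all genes, and 2 were past -1, where 2.36% of all genes were. None was past 1, where 0.463% were. *Cdc20* stood at 43.0 and 15.8 CPM (-1.44), *Tpx2*, a spindle assembly factor, at 37.3 and 16.7 CPM (-1.16) and *Ube2c* at 96.1 and 49.6 CPM (-0.95). *Stmn1* (150 and 194 CPM, 0.37), *2810417H13Rik* (88.5 and 112 CPM, 0.33) and *Cenpa* (74.6 and 84.9 CPM, 0.18) were at the other end. The 3 DC states did not share a direction. cDC1-like cells, which cross-present antigen, had S sums of 1398 and 1038 CPM and G2/M sums of 2752 and 3494 CPM, with only 16 cells in the library labelled WT. Mature DC-like cells (29 and 45) had S sums of 1054 and 401 CPM. In Cd209a DC-like cells (67 and 153) the S sums of 632 and 676 CPM had overlapping intervals, and the sign of the G2/M ratio (-0.26) turned to 0.023 with cycle genes kept in the clustering. Of 18 genes tested there 2 were past -1, *Hist1h2ap* (111 and 42.2 CPM, -1.39) and *Ube2c* (140 and 63.3 CPM, -1.14), where 2.22% of all genes were, and 0 were past 1, where 0.73% were.

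In TAM/Mono cells the differences ran the other way. Of 48 genes tested 44 had ratios above 0 (all but 6 of 52 with a minimum of 20 UMIs), with a median of 0.41 against 0.07 for all genes, and 0 passed a log2 ratio of 1 in either direction, where 0.758% of all genes were past it upward and 1.76% downward. *2810417H13Rik* stood at 32.5 CPM labelled WT and 64.0 CPM labelled KO (0.98), *Stmn1* at 82.8 and 155 CPM (0.90) and *Ung* at 4.17 and 7.74 CPM (0.89). The lowest were *Ccnb1* (14.8 and 13.3 CPM, -0.15), *Plk1*, Polo-like kinase 1 (7.34 and 6.72 CPM, -0.12), and *Cdc20* (165 and 125 UMIs, -0.070). All 21 S genes tested had ratios above 0, and the 4 genes below 0 were G2/M genes. The ratio was 0.47 for fork and repair genes (138 and 191 CPM), 0.46 for mitotic kinases and 0.20 for the kinetochore group (95.8 and 110 CPM).

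C1q macrophage-like cells, 70 of 912 TAM/Mono cells labelled WT and 92 of 810 labelled KO, held 7309 of the 21000 and 9699 of the 20749 G2/M UMIs of the class. Their S sum was 1181 CPM labelled WT and 1400 CPM labelled KO (0.25, 0.16 to 0.33) and their G2/M sum 4357 and 4864 CPM (0.16, 0.12 to 0.20). Over the alternatives these ratios ran from 0.014 as UMIs per cell (G2/M) to 0.63 without cells of more than 20000 UMIs (S). Of 38 genes tested in them 27 had ratios above 0, with a median of 0.15 against 0.07 for all genes. *Mcm3*, another helicase subunit, stood at 31.0 and 67.2 CPM (1.11), the only 1 past a log2 ratio of 1, where 0.487% of all genes were, and none was past -1, where 1.49% were. *Cenpe*, the kinetochore motor (35.2 and 22.6 CPM, -0.64), and *Ccnb1* (59.6 and 40.6 CPM, -0.55) were lowest. With states weighted by their mix over both libraries the TAM/Mono ratios were 0.24 for S and 0.15 for G2/M. MHC class II monocyte-derived cell-like cells had G2/M sums of 2023 and 2105 CPM and classical monocyte-like cells 874 and 998 CPM, and the sign of both ratios changed between settings. Of 21 genes tested in the former and 5 in the latter 0 were past the fold, where 0.325% and 0.687% of all genes were past it upward and 1.44% and 1.41% downward. Summed melanoma markers were at 48.6 CPM in TAM/Mono cells labelled WT and 29.2 CPM in those labelled KO, with *Sox10* and *Tyr* at or near 0, and at 99.6 and 44.1 CPM in C1q macrophage-like cells, and their part in the result was not tested.

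To ask how many cells carried the transcripts, each cell was thinned to 3000 UMIs and counted as past the cut when it held at least 3 UMIs of S genes or at least 3 of G2/M genes, the 4 broad genes left out. The cut is a point on a range, and 236 of 1015 T cells labelled WT and 323 of 1073 labelled KO held 2 or 3 UMIs on their larger sum. In T cells 55.0% (51.9 to 58.1) of cells labelled WT and 27.3% (24.7 to 30.1) of cells labelled KO were past it, and 74.4% and 43.6% without thinning. NK cell-like cells were at 29.3% (22.9 to 36.3) and 18.5% (13.9 to 23.8), DCs at 26.8% (18.9 to 36.0) and 21.2% (16.4 to 26.6), and TAM/Mono cells at 11.5% (9.51 to 13.8) and 16.7% (14.2 to 19.5). Without thinning, NK cell-like cells were at 51.1% and 32.1% and DCs at 79.5% and 59.2%. TAM/Mono cells were then at 56.0% and 45.2%, the other direction.

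By state, checkpoint-high cells were past the cut in 76.6% labelled WT and 52.2% labelled KO, with median depths of 14536 and 9143 UMIs. C1q macrophage-like cells were at 51.4% (39.2 to 63.6) and 69.6% (59.1 to 78.7), and at 98.6% and 96.7% unthinned. Regulatory T cell-like cells were at 42% (32.2 to 52.3) and 43.4% (33.5 to 53.8), and the unthinned shares, 67.0% in the library labelled WT, differed by -7.00 percentage points. Naive-like cells were at 15.6% and 10.1%. As the background, pDC-like cells were at 4.35% (0.531 to 14.8) and 7.35% (2.43 to 16.3), with median depths of 7322 and 6946 UMIs, and classical monocyte-like cells at 2.75% and 6.70%.

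**Figure D3:**
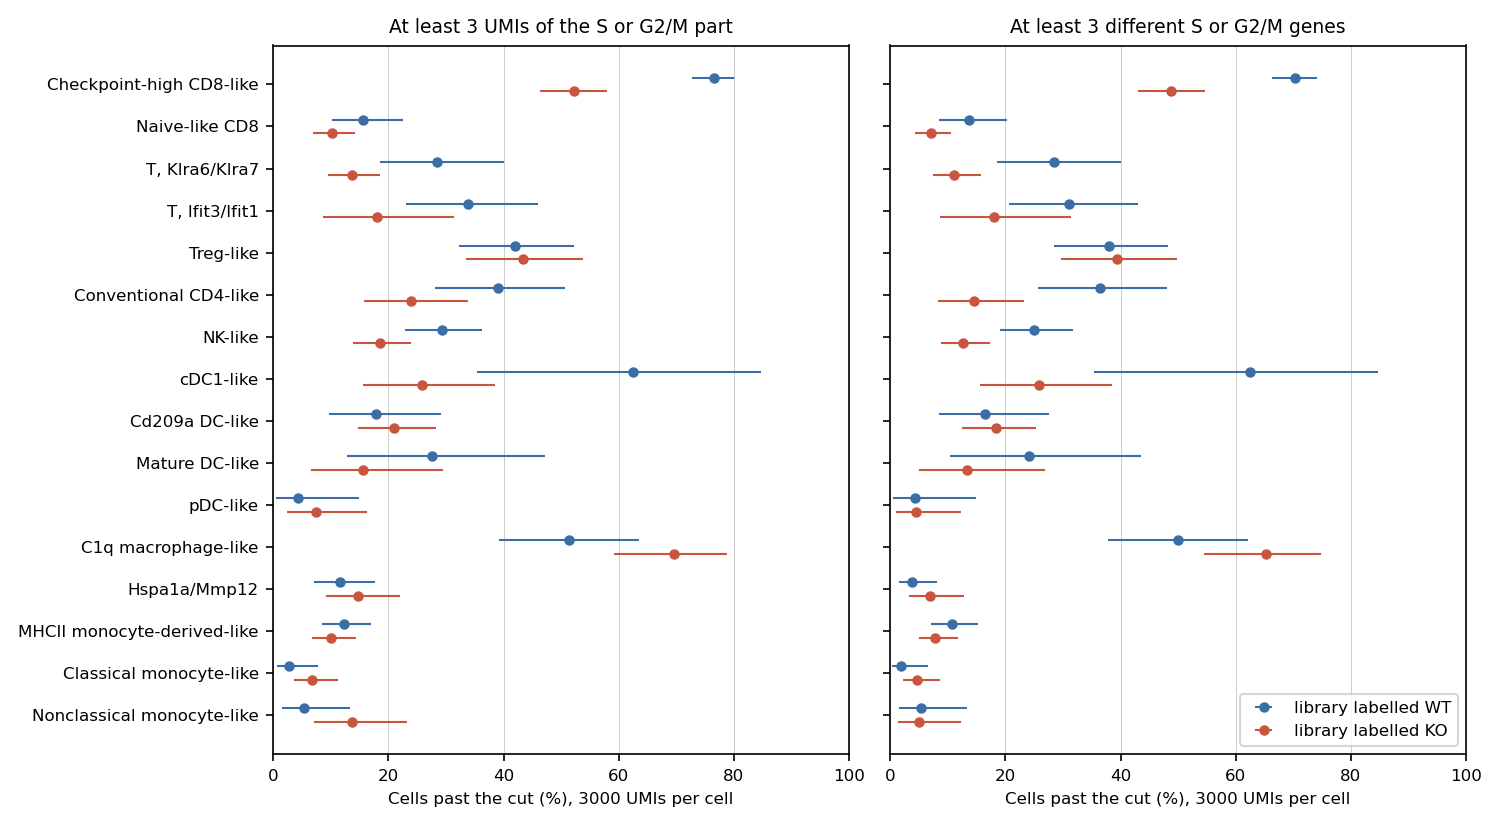
Percent of cells past the cut in the states shown, thinned to 3000 UMIs per cell, for the library labelled WT and the library labelled KO, with 95% Clopper-Pearson intervals, for the cut of 3 UMIs (left) and of 3 different genes (right). At the cut of 3 UMIs, checkpoint-high CD8 cells are highest in the library labelled WT (76.6%), C1q macrophage-like cells are highest in the library labelled KO (69.6%), and pDC-like cells and classical monocyte-like cells are under 8% in both.

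Some nonclassical monocyte-like cells passed the cut mainly through 1 gene. Among 7 nonclassical monocyte-like cells that held 3 UMIs but not 3 different genes, *Cks2* gave 75% of the UMIs, and the gene stood at 53.0 and 143 CPM in that state. With 3 different S genes or 3 different G2/M genes required, a cut chosen after these data were seen, T cells were at 50.5% and 23.8%, NK cell-like cells at 25% and 12.6%, TAM/Mono cells at 8.88% and 12.9% and nonclassical monocyte-like cells at 5.41% and 5.0%. T cells past this cut held 95.4% of all UMIs of the 48 other genes in T cells labelled WT and 90.9% in those labelled KO. In C1q macrophage-like cells they held 88.6% and 91.3%, and in pDC-like cells 5.81% and 8.56%. Cells passed by holding UMIs of these same genes, so these shares of unthinned UMIs follow in part from the cut and from how many cells passed. *Pcna* (56.7 and 54.2 CPM) and *Cks1b* (51.0 and 31.2 CPM) were among the genes found in pDC-like cells.

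**Figure D4:**
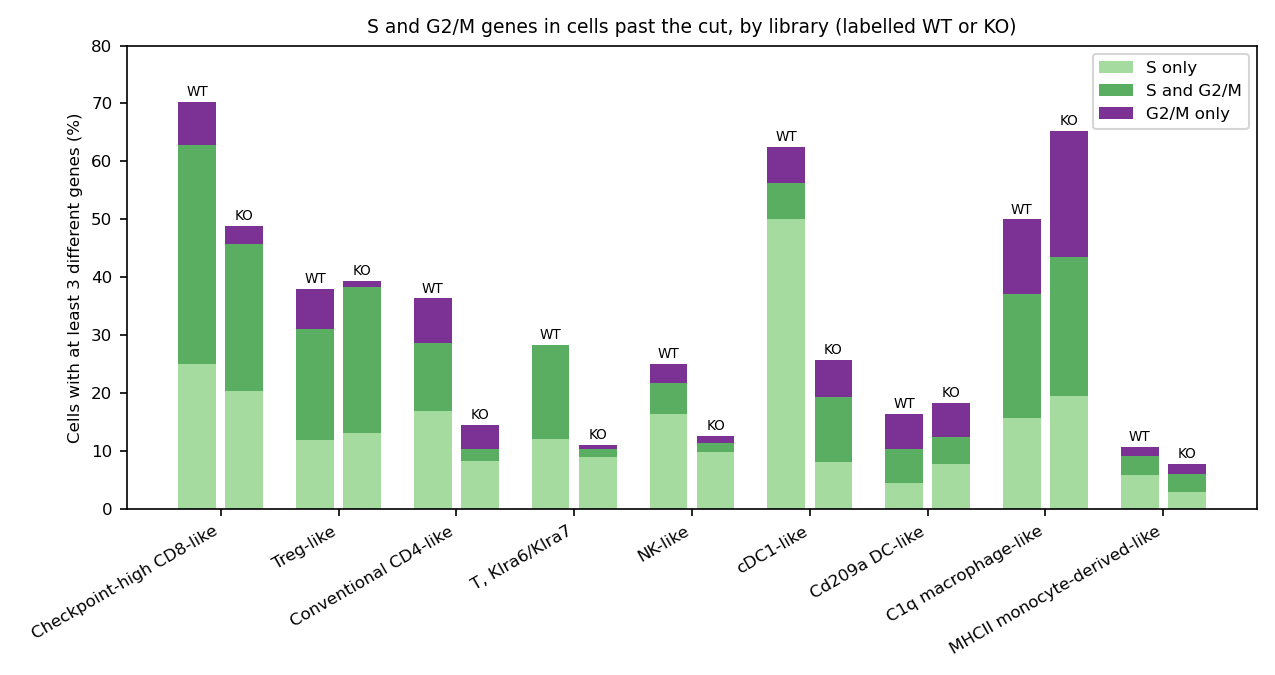
Cells past the cut of 3 different genes in the states shown, by library, split into cells past it for S genes only, for both and for G2/M genes only, as percent of the cells of the state. In checkpoint-high CD8 cells the split was 137, 206 and 41 cells labelled WT and 61, 76 and 9 cells labelled KO.

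The S and G2/M programs overlapped within cells. Of 384 checkpoint-high cells labelled WT past the cut of 3 different genes, 206 were past it for both sets, 137 for S genes only and 41 for G2/M genes only. Cells labelled KO gave counts of 76, 61 and 9 of 146. C1q macrophage-like cells split more evenly, with 15, 11 and 9 of 35 cells labelled WT and 22, 18 and 20 of 60 labelled KO. The share past the cut for G2/M genes alone or with S genes was 31.0% and 12.2% in T cells, 8.51% and 2.76% in NK cell-like cells, and 5.26% and 8.79% in TAM/Mono cells. Thinned checkpoint-high cells with a *Top2a* UMI were also set beside those without, for the other 51 genes only. How often genes in general are found beside *Top2a* was not measured, so no count is drawn. The median share of cells with a gene was 27.9% against 11.4% in the library labelled WT and 27.4% against 5.75% in the library labelled KO, from 179 and 73 cells with *Top2a*. *2810417H13Rik* differed most, at 68.7% against 25.1% and at 71.2% against 18.6%. *Ung* in the library labelled WT (5.59% and 6.54%) and *Mcm4*, a helicase subunit, in the library labelled KO (6.85% and 9.73%) were found less often beside *Top2a*. Only 9 C1q macrophage-like cells labelled WT and 12 labelled KO held *Top2a*. The median shares there were 22.2% against 8.20% labelled WT and 16.7% against 11.3% labelled KO.

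T cells past the cut were deeper and more often met the minimums for both *Cd3* and myeloid UMIs, which were applied without thinning. Among them the median depth was 15500 UMIs past the cut of 3 different genes and 5538 below it for cells labelled WT, and 12636 against 4505 for cells labelled KO. T cell and myeloid RNA together were found in 72.3% of T cells past the cut and 33.9% below it labelled WT, and in 59.2% and 26.8% labelled KO. Summed melanoma markers in T cells were at 4.39 CPM past the cut and 3.25 CPM below it labelled WT, and at 16.2 and 4.35 CPM labelled KO, where *Mitf*, *Sox10* and *Tyr* were at 0 in the cells past it. This did not hold in every state. C1q macrophage-like cells labelled WT held both kinds of RNA in 22.9% past the cut and 37.1% below it, and nonclassical monocyte-like cells labelled WT past the cut were shallower, at 4936 against 7040 UMIs, from 4 cells past it. The part of depth and mixed RNA in these shares was not tested. The difference in the share of T cells past the cut of 3 UMIs was -27.7 percentage points, and -16.3 without cells holding both kinds of RNA.

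Outside the 52 genes, 17 drivers of the cycle and 19 genes that restrain it were taken from lists. In T cells, of 15 drivers tested 0 were past a log2 ratio of 1 and 1 was past -1, and of 17 restraint genes 1 was past in each direction, where 1.09% and 1.64% of all genes were. *E2f1*, a transcription factor of S phase genes, stood at 18.5 CPM labelled WT and 5.73 CPM labelled KO (-1.68). *Cdkn1b*, the Cdk inhibitor p27, stood at 18.6 and 38.6 CPM (1.05), and *Cdkn2b*, the inhibitor p15, at 8.58 and 3.86 CPM (-1.14). In checkpoint-high cells *E2f1* stood at 19.7 and 9.37 CPM (-1.05), the 1 gene past the fold there of 15 drivers and 17 restraint genes tested, where 1.25% of all genes were past -1 and 0.328% past 1. Of the drivers tested in T cells 13 of 15 had ratios below 0 with a median of -0.46, and of the restraint genes 12 of 17 with a median of -0.33, where the median of all genes was -0.08 and that of the cycle genes -0.67. No gene of either list passed in NK cell-like cells (5 drivers and 7 restraint genes tested, where 0.408% of all genes were past 1 and 1.56% past -1). The same held for regulatory T cell-like cells (4 and 7 tested, 0.281% and 1.25%) and C1q macrophage-like cells (6 and 10 tested, 0.487% and 1.49%).

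In DCs *Ccnd2*, cyclin D2 of the G1 phase, stood at 532 and 213 CPM (-1.32), the 1 gene past the fold there of 5 drivers and 11 restraint genes tested, where 2.36% of all genes were past -1. It stood in Cd209a DC-like cells at 553 and 231 CPM (-1.26), where 2.22% of all genes were past -1. In TAM/Mono cells *E2f2* stood at 3.53 and 14.8 CPM (2.05), the only gene past the fold in the class of 12 drivers and 15 restraint genes tested, where 0.758% of all genes were past 1 and 1.76% past -1. *Klf2*, a transcription factor of resting cells, stood at 58.9 and 27.3 CPM in MHC class II monocyte-derived cell-like cells (-1.11) and at 382 and 169 CPM in classical monocyte-like cells (-1.18), against 1.44% and 1.41% of all genes past -1.

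Between CD8 states the restraint genes lay on both sides. In checkpoint-high over naive-like cells, 14 of 17 drivers and 15 of 19 restraint genes labelled WT had enough UMIs, and 7 and 13 labelled KO. A gene could reach the minimum through one state alone, so the genes past a log2 ratio of 1, as were 27.8% and 24.5% of all genes, are named and not counted. *Cdkn2a*, the p16 and p19 inhibitor gene, rested on 3 UMIs and 638 UMIs labelled WT (4.09, 2.76 to 6.59) and on 1 and 217 UMIs labelled KO (5.99, 4.07 to 11.9). *Cdkn1a*, the inhibitor p21, stood at 17.9 and 102 CPM labelled WT (2.47) and at 9.10 and 79.2 CPM labelled KO (3.07). *Cdk6*, a G1 kinase, stood at 25 and 177 CPM (2.79) and at 17.5 and 152 CPM (3.09). *Cdkn2c*, *Rbl2*, *E2f4*, *Fzr1* and *Gmnn* were past 1 among the restraint genes in both libraries (2.28, 1.30, 1.2, 1.42 and 1.72 labelled WT), as were the drivers *Ccne1* (1.65 and 2.18) and *Cdc25b* (1.47 and 1.11). *Mybl2* (1.89), *E2f8* (1.92, from 2 and 101 UMIs, 0.35 to 5.30) and *Foxm1* (1.03) passed in the library labelled WT and *Cdk4* (1.18) in the library labelled KO.

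Lower in checkpoint-high cells of both libraries were *Klf2* (546 and 24.9 CPM labelled WT, -4.45, and 166 and 13.3 CPM labelled KO, -3.62) and *Cdkn1b* (-1.01 and -1.05). *Btg2* (-1.27) and *Tob1* (-1.41), antiproliferative genes, were past -1 in the library labelled WT, where 3.6% of all genes were, as were 2.92% in the library labelled KO. In C1q macrophage-like over classical monocyte-like cells *Ccnd1*, cyclin D1, stood at 6.10 and 103 CPM labelled WT (3.96) and at 5.64 and 157 CPM labelled KO (4.72), whereas *Ccnd3*, cyclin D3, stood at 284 and 41.7 CPM (-2.76) and at 234 and 54.7 CPM (-2.09). Of all genes 13.2% and 16.0% were past 1 in this comparison, and 10.5% and 12.9% were past -1. *Ccnd2* (1.65 and 1.42) and *Gmnn* (1.75 and 3.35), the inhibitor of helicase loading, were also higher in both. *Klf2* (-2.37 and -1.48), *Btg1* (-1.79 and -2.48), *Btg2* (-1.81 and -2.74) and *Cdkn2d* (-1.28 and -2.03) were lower in both. *Cdk4* (1.47) and *Cdk6* (1.09) passed in the library labelled KO.

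**Figure D5:**
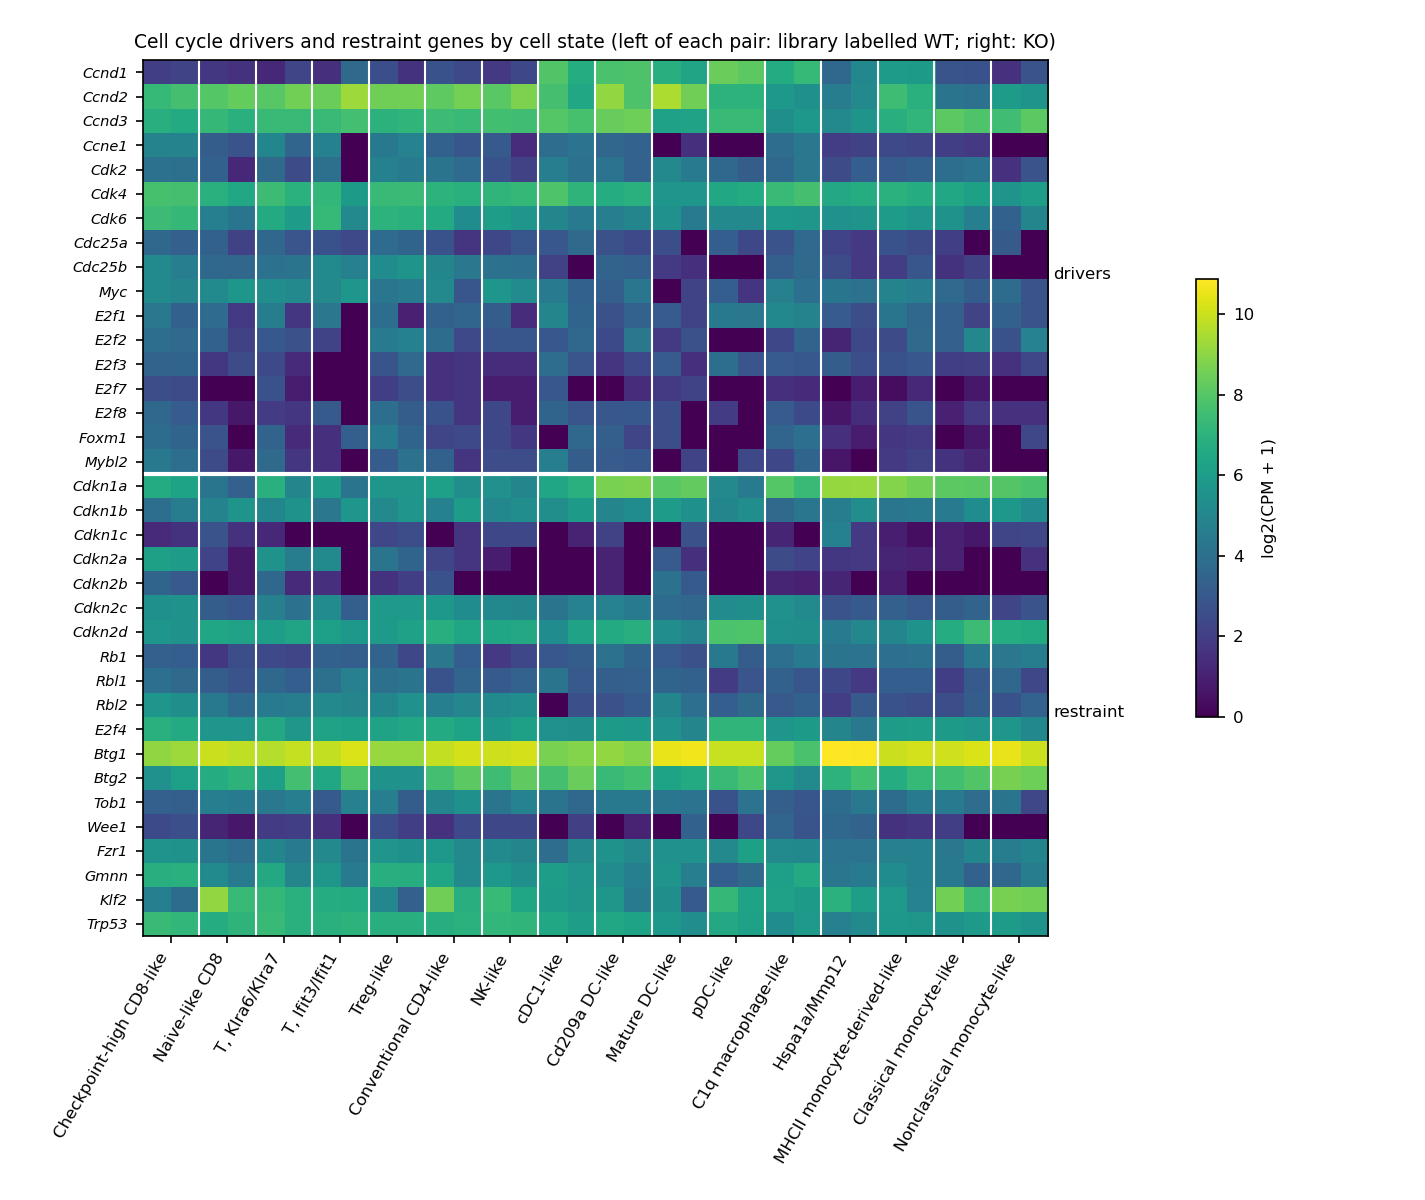
Level of drivers and restraint genes of the cycle (rows) by state and library (columns), as log2(CPM + 1) on the color scale. Of the states shown, *Cdkn2a* is highest in checkpoint-high CD8 cells (71.0 CPM labelled WT and 61.6 CPM labelled KO), *Ccnd1* in pDC-like cells (334 and 281 CPM) and *Klf2* in naive-like CD8 cells labelled WT (546 CPM).

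Within checkpoint-high cells, the cells past the cut of 3 different genes (384 labelled WT and 146 labelled KO) were set beside those below it (162 and 153). The cells below were also shallower, at a median of 9940 against 16778 UMIs labelled WT and 6165 against 15222.5 labelled KO. A gene could reach the minimum of 100 UMIs through the cells past the cut alone, so genes are named and not counted, and 6.81% of all genes labelled WT were past a log2 ratio of 1. *Cdc25b*, a phosphatase that activates Cdk1, stood at 7.12 CPM below and 41.6 CPM past the cut (2.49), *Cdk2* at 4.38 and 18.3 CPM (1.98), *Ccne1* at 8.77 and 32.8 CPM (1.86) and *E2f1* at 6.57 and 23.0 CPM (1.75). *Mybl2*, a factor of G2/M transcription, had 0 UMIs below and 178 past the cut, at least 15.1-fold higher, and *E2f8* 0 and 101 UMIs, at least 8.58-fold higher. *Foxm1* had 3 and 117 UMIs (3.10, 1.73 to 5.61). Among cells labelled KO only 5 drivers had enough UMIs and none of them was past the fold, where 7.21% of all genes were past 1 and 1.57% past -1. Of the restraint genes *Gmnn* was past 1 in both libraries, at 44.9 and 134 CPM labelled WT (1.57) and 37.9 and 157 CPM labelled KO (2.03). The others labelled WT were *Fzr1* (19.7 and 56.7 CPM), an activator of the anaphase-promoting complex in G1, *Rbl1* (7.12 and 16.5 CPM), a relative of the retinoblastoma protein, and *Cdkn2c* (23.6 and 48.4 CPM), and *Klf2* (42.2 and 20.5 CPM) was past -1, as were 0.668% of all genes. *Ccnd2* was at 215 and 139 CPM (-0.63) and at 279 and 172 CPM (-0.70).

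The same split was made in regulatory T cell-like and C1q macrophage-like cells, where few regulators had enough UMIs. In regulatory T cell-like cells 6.71% of all genes were past 1 and 3.5% past -1 labelled WT, and 12.1% and 7.38% labelled KO. Higher past the cut in both libraries was *Gmnn* (42.1 and 157 CPM labelled WT, 1.86, and 4 and 101 UMIs labelled KO, 3.55 with an interval of 2.31 to 5.61). Lower in both was *Btg1*, an antiproliferative gene (960 and 351 CPM labelled WT, 1032 and 366 CPM labelled KO). *Cdk4*, a G1 kinase, was higher past the cut labelled WT (65.8 and 220 CPM, 1.72). In C1q macrophage-like cells *Gmnn* (34.4 and 101 CPM labelled WT, 1.53, and 50.6 and 121 CPM labelled KO, 1.24) was past 1, as were 2.74% and 2.93% of all genes. No gene of the lists was past -1, where 0.568% and 0.602% of all genes were. *Btg1* stood at 311 and 320 CPM labelled WT and 245 and 206 CPM labelled KO, below and past the cut. Depth differed between the cells compared, with medians of 12958 past and 5323 below in regulatory T cell-like cells labelled WT and 23018 and 19880 in C1q macrophage-like cells labelled WT. Labelled KO, the medians were 16099 and 4782 in regulatory T cell-like cells and 22729 and 18958 in C1q macrophage-like cells.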

How the data were processed

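Each genotype gave 1 scRNAseq library of live CD45.2+ DAPI- cells from B16-OVA tumors. Per the submitters' processing notes, reads were processed with Cell Ranger on mm10, and the versions are not given in the sources used here. The deposited table is called raw counts but holds natural log values. Less 1 after exponentiation they summed to 10000 in every cell, the form of the normalization in the study's methods. UMIs were recovered by dividing each cell's exponentiated values by their smallest nonzero value. At a tolerance of 0.01, 100% of nonzero values came out whole. The libraries shared 13 cell barcodes, which were kept.

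Cells were clustered with Seurat 5.3.0 in R 4.3.3 (13 PCs, resolution 0.8, depth regressed out), then again within lymphocytes and within myeloid cells, with cell cycle genes and histone genes left out of the variable genes. Clusters were named from marker lists, and the separate values of 1 cluster are not reported here. Clusters of mixed RNA were kept apart, no doublet caller was run, and cells with at least 3 *Cd3* UMIs and at least 5 myeloid UMIs were left out as an alternative. Summed UMIs were expressed as CPM with exact Poisson intervals. Log2 ratios used 0.5 added UMIs, a minimum of 100 UMIs per gene over both sides, and a log2 ratio of 1 as the fold. Shares used Clopper-Pearson intervals after thinning to 3000 UMIs, which left out 42 cells, all labelled KO. No test over cells was run, since cells are not replicates.

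Other steps used Python 3.11.15, numpy 2.4.6, scipy 1.17.1, pandas 2.3.3 and matplotlib 3.10.9, and were tested on simulated data. The gene set, lists, cuts and named-gene rule (per class the 3 highest and 3 lowest ratios, the 3 highest levels of S and of G2/M, the 10 genes most like the G2/M sum, and listed regulators past the fold) were chosen with earlier results of these data known. Genes named beyond that rule were chosen after their values were seen.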

Additional observations from a re-analysis of the deposited data

Results flagged for a closer look

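The libraries differed in opposite directions by cell class. The log2 ratio of the library labelled KO over the library labelled WT was -0.68 for S genes and -0.64 for G2/M genes in T cells, -0.92 and -0.84 in NK cell-like cells, and 0.42 and 0.31 in TAM/Mono cells. Each class has 1 library per genotype, so the difference between the classes was not tested.

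Cells of the mixed RNA clusters entered no comparison of classes or states, but they are part of the values over all cells. They were often past the cut of 3 UMIs in 3000, with 37.0% of 108 cells labelled WT and 30.4% of 102 cells labelled KO. pDC-like cells stood at 4.35% and 7.35%. Summed melanoma markers in the mixed clusters were at 668 and 692 CPM, and T cell and myeloid RNA together were found in 94.4% and 93.1% of them.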

How the results depend on the processing

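No paired analysis was possible because each genotype has 1 library and the labels give no replicate numbers. The sign of the S and G2/M ratios was kept in T cells (23 of 23 values, S and G2/M counted apart, -1.45 to -0.48), NK cell-like cells (21 of 21, -1.40 to -0.49), DCs (23 of 23, -0.58 to -0.030) and TAM/Mono cells (23 of 23, 0.15 to 0.65). Shares kept their direction in T cells, NK cell-like cells and DCs (11 of 11 alternatives each) and in TAM/Mono cells in 10 of 11. The causes of the shifts below were not tested. The narrower list of both kinds of RNA, the limit of 20000 UMIs and the cut of 3 different genes were chosen after seeing the data.

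For S and then G2/M, UMIs per cell gave -1.45 and -1.41 in T cells, -1.40 and -1.32 in NK cell-like cells, -0.39 and -0.26 in DCs, and 0.26 and 0.15 in TAM/Mono cells. The mean of each cell's CPM gave -1.02 and -0.93 in T cells, -0.67 and -0.66 in NK cell-like cells, -0.19 for G2/M in DCs, and 0.22 and 0.20 in TAM/Mono cells. Weighting states by their mix over both libraries gave -0.54 and -0.48 in T cells and 0.24 and 0.15 in TAM/Mono cells. Without cells of more than 20000 UMIs the values were -0.84 and -0.79 in T cells, -0.58 and -0.49 in NK cell-like cells, -0.12 for S in DCs, and 0.16 and 0.17 in TAM/Mono cells. Without cells of T cell and myeloid RNA they were -0.83 and -0.82 in T cells, -0.65 for S in NK cell-like cells, -0.030 and -0.18 in DCs, and 0.65 and 0.34 in TAM/Mono cells. The narrower list gave -0.64 for S in T cells, -0.78 and -0.68 in NK cell-like cells, -0.24 for G2/M in DCs, and 0.65 and 0.34 in TAM/Mono cells. Cycle genes kept in the clustering gave G2/M ratios of -0.62 in T cells, -0.71 in NK cell-like cells, -0.19 in DCs and 0.25 in TAM/Mono cells, and S ratios of -0.58 in DCs and 0.34 in TAM/Mono cells. G2/M ratios were -0.61 in T cells with 20 PCs, and 0.28 in TAM/Mono cells without depth regression. A resolution of 1.2 gave -0.58 in T cells, -0.70 in NK cell-like cells and -0.049 in DCs. Without the 4 broad genes they were -0.71, -1.22, -0.35 and 0.40 in T, NK, DC and TAM/Mono cells.

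Without thinning, the difference in the share past the cut was -20.2 percentage points in DCs, and it reversed to -10.8 in TAM/Mono cells and to -1.83 in C1q macrophage-like cells, where 98.6% and 96.7% of cells then passed. It also turned below 0 in regulatory T cell-like (-7.00), classical monocyte-like (-13.0) and Cd209a DC-like cells (-20.7). Without cells of both kinds of RNA it was -16.3 in T cells. At a log2 ratio of 0.58, the genes that passed were 15 higher in TAM/Mono cells (4.79% of all genes), and 9 lower in DCs (7.58%), 17 in NK cell-like cells (4.82%) and 38 in T cells (6.99%). A minimum of 20 UMIs let 24 of 46 pass in NK cell-like cells (3.41% of all genes) and 1 of 52 in TAM/Mono cells (2.37%). Without cells of both kinds of RNA 20 of 44 passed in T cells (2.22%) and 4 of 46 in TAM/Mono cells (0.825%). G2/M ratios changed sign in MHC class II monocyte-derived cell-like cells (-0.20 as UMIs per cell, -0.034 with cycle genes kept, -0.030 by mean CPM and -0.035 without cells of both kinds of RNA by either list), in classical monocyte-like cells (-0.99 with cycle genes kept, -0.0081 without depth regression and -0.46 at a resolution of 1.2) and in Cd209a DC-like cells (0.023 with cycle genes kept).

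With 1 library per genotype no value separates genotype from library. A minimum of 100 UMIs left 20 of the 52 genes in NK cell-like cells and 32 in DCs. Intervals cover counting error only.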

Other observations

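Gene levels were set beside the G2/M sum without the 4 broad genes over 34 points. A point was a state in 1 library with at least 20 cells, and mixed RNA was left out. Outside the 52 genes and the other cycle genes kept out of the clustering, the 10 genes that went most closely with this sum were *Knstrn* (Pearson's r = 0.94), *Nde1* (0.853), *Apitd1* (0.851), *Rmi2* (0.848), *Rwdd1* (0.847), *2700094K13Rik* (0.835), *Suz12* (0.834), *Dnajc2* (0.824), *Exosc8* (0.815) and *Dpy30* (0.813), on log2(CPM + 10). *Knstrn*, a spindle and kinetochore protein gene, ran from 0 CPM in nonclassical monocyte-like cells labelled KO to 76.2 CPM in conventional CD4 T cell-like cells labelled WT. *Suz12*, a subunit of Polycomb repressive complex 2, ran from 5.64 CPM in classical monocyte-like cells labelled KO to 41.9 CPM in conventional CD4 T cell-like cells labelled WT. The points share libraries, depth and cell lineage, so these are descriptions. Over the same points the S sum went with the G2/M sum without the 4 broad genes at r = 0.917, and the sum of the 4 broad genes at r = 0.954.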
